A study of Mus musculus with 49 samples.

Results

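Of the 49 libraries of the series, 8 were compared here: 3 libraries of dediHep aggregates and 5 of dediHeps kept as monolayer. dediHeps are hepatocytes of wild-type male C57BL/6J mice, 10 weeks old, that turned into expandable progenitor-like cells during culture. The monolayer dediHeps grew attached to type I collagen in a medium with EGF at 20 ng/mL. For aggregates, dediHeps were seeded in ultra-low attachment wells with a coat of poly 2-hydroxyethyl methacrylate, and a different medium was used, whose composition is not given in the sources used here. Aggregate replicates 1, 2 and 3 carry the same culture names as monolayer replicates 1, 2 and 4, and are called cultures 1, 2 and 3 below, while monolayer replicates 3 and 5 have no aggregate. Three-dimensional shape, medium and the loss of attachment to collagen changed together and cannot be told apart. The day of aggregation and the passage of each sequenced culture are not in the labels. The question of the comparison is which genes of the hepatocyte are restored, and which genes of the cultured progenitor-like cell are shut off, when dediHeps form aggregates.

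Hepatocytes secrete most plasma proteins, turn ammonia into urea, release glucose, make bile acids and oxidize drugs with cytochrome P450 enzymes. Plated on a stiff flat surface they lose much of this programme within days, spread, build actin fibres, activate the Yap coactivator and can enter the cell cycle. Spheroid culture without a substrate is a widely used way to keep or regain hepatocyte functions.

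The libraries hold 3′ end counts of unique molecular identifiers (UMIs), and levels are given below as CPM, counts scaled to library size with TMM factors. Library totals ran from 1362169 to 2848505 counts, so that 3 counts, the floor below which a 0 says little, are 1.05 to 2.2 CPM before scaling. The UMI has 6 bases, which caps the count of a gene in a library, and the most abundant gene of each library had 3843 counts or more, at or near that cap. Monolayer replicate 1 stood apart from the other monolayer libraries, with Spearman correlations of 0.749 to 0.852 against 0.869 to 0.917 among the other 4, and the 3 aggregates correlated with each other at 0.914 to 0.930. The mitochondrially encoded share of counts was 1.73% ± 0.281 (SD, n = 3) in aggregates and 1.73% ± 0.270 (SD, n = 5) in monolayer, a difference of -0.00333 percentage points (exact two-sided permutation test, p = 1, smallest possible p = 0.0179). None of 13 stellate cell and fibroblast markers, none of 12 endothelial markers and 1 of 15 leukocyte markers (Csf1r) had enough counts to be tested. Their summed CPM, here without TMM factors, stayed at or below 2.45, 6.15 and 17.4 in each of the 8 libraries. Col3a1, Lum, Cdh5, Stab2, Kdr and Adgre1 had 0 counts in all of them. In bulk RNA a smaller share of cells that express a gene and less RNA per cell cannot be told apart.

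In the quasi-likelihood test of edgeR, 1071 of 11265 tested genes had an FDR below 0.1 together with a log2 fold change above 2 or below -2, and such genes are termed called. In aggregates 495 were higher (4.39% of the tested genes) and 576 were lower (5.11%). The median log2 fold change over all tested genes was -0.07. Genes with too few counts were not tested. A gene near 0 in monolayer passes this filter only when its aggregates are high. The share of called genes among tested list members is therefore partly set by the filter. The count of lower genes depended on the aggregates, with 273 called without aggregate replicate 1 and 326 without aggregate replicate 3, whereas 445 and 436 higher genes were called in these fits. Without monolayer replicate 1, 452 were higher and 448 lower. Within the 3 shared cultures, 492 of the 495 higher genes were above the monolayer of the same culture in all 3, and 566 of the 576 lower genes were below it in all 3. These genes were called on the same libraries, so this agreement was largely built in and is no separate evidence. The size differed between cultures: the median difference of the higher genes was 4.46 on the log2 scale in culture 1, 3.18 in culture 2 and 3.05 in culture 3, and that of the lower genes was -3.44, -2.16 and -1.86.

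**Figure D1:**
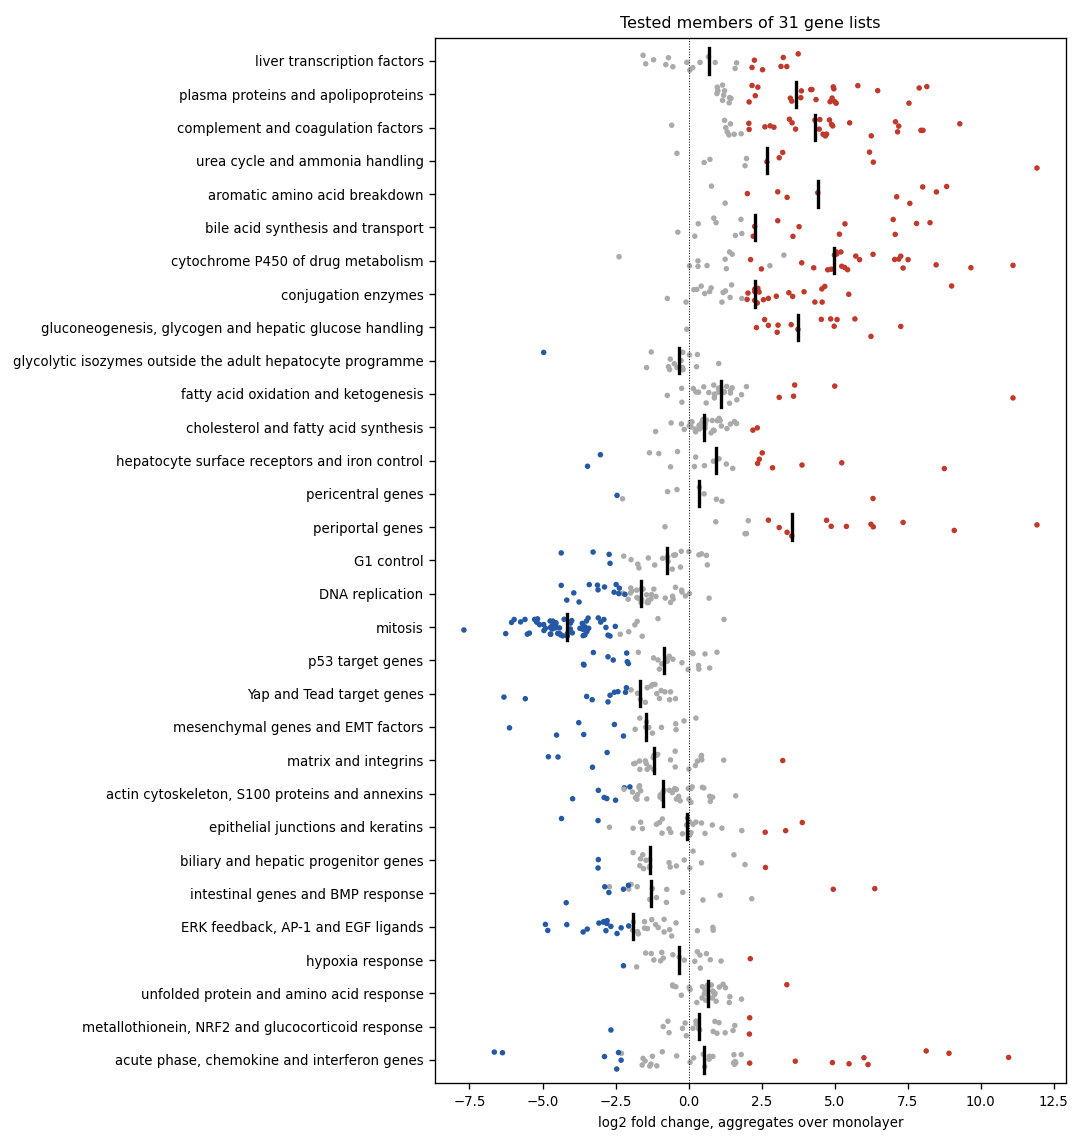
Log2 fold change (aggregates over monolayer, horizontal axis) of each tested member of 31 gene lists (rows), with called genes filled in red (higher) or blue (lower) and genes not called in grey; the black bar is the median of the list. The medians of the liver function lists lie to the right of 0, while the mitosis list lies furthest to the left with a median of -4.15.

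The lists with the most higher calls were those of liver function. The gene with the smallest p among higher genes was Asgr1, a subunit of the asialoglycoprotein receptor that clears desialylated proteins from blood. Its level was 593, 251 and 594 CPM in the 3 aggregates and 0, 2.04, 0.964, 0.798 and 1.45 CPM in the 5 monolayers, against 2036 ± 396 CPM (SD, n = 3) in freshly isolated hepatocytes (FH). All 3 aggregates were above every monolayer library, with a log2 fold change of 8.75 (SE 0.547, FDR 5.1e-05). Asgr2, the other subunit, rose as well (log2 fold change 5.24, SE 0.474, FDR 0.000176). Upb1, an enzyme of pyrimidine breakdown, was at 267, 82.5 and 204 CPM in aggregates and at 1.72, 0.51, 0.321, 1.2 and 1.93 CPM in monolayer. The sulfate carrier Slc26a1 rose by 7.71 (SE 0.639, FDR 0.000125). Rdh16f2, of the retinol dehydrogenase family, had 130, 88 and 151 counts in aggregates and 2 over the monolayers, a ratio of 393 (95% exact interval 108 to 3258), and the acyl-CoA synthetase Acsm1 had 55, 72 and 148 and 2, a ratio of 293 (95% exact interval 80.3 to 2431).

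Secreted proteins formed the first large group. Of 35 plasma protein and apolipoprotein genes, 32 were tested, 22 were called higher (4.39% over all tested genes) and 0 lower, and the list median was 3.68. Itih3, which encodes a heavy chain that binds hyaluronan, was at 1551, 920.0 and 1484 CPM in aggregates and 1.15, 21.9, 5.14, 17.2 and 28.9 CPM in monolayer (log2 fold change 6.47, SE 0.713, FDR 0.000526). Apoa2, a structural protein of high-density lipoprotein, had 1910.0, 1104 and 1664 CPM in aggregates and 0, 7.65, 0.321, 14.4 and 10.1 CPM in monolayer, and its groups did not overlap (log2 fold change 7.89, SE 0.905, FDR 0.000599). Apof, a minor apolipoprotein, rose by a log2 fold change of 8.15 (SE 0.593, FDR 8.2e-05). Apoc4, another apolipoprotein, rose by 5.00 (SE 0.59, FDR 0.000664). The most abundant members changed less: Apoa1, the main protein of high-density lipoprotein, was at 3193, 1811 and 2063 against 313, 1063, 1045, 1028 and 1569 CPM (log2 fold change 1.23, SE 0.411, FDR 0.0676), and Rbp4, the carrier of retinol, had a log2 fold change of 1.16 (SE 0.345, FDR 0.0469); neither was called. Alb, the albumin gene, was called at 2.17 (FDR 0.0686) with 3136, 1709.7 and 1992 CPM against 92, 627, 66.8, 772 and 965 CPM, and its call was lost without any 1 of the 3 aggregates (1.87, 2.36 and 2.27 without replicates 1, 2 and 3) and without monolayer replicates 1, 2 or 3 (1.91, 2.26 and 1.89). Counts of Alb in aggregates were 3725, 3834 and 3816, close to the cap set by the UMI length. After a correction of the counts for UMI collisions the log2 fold change was 3.30 for Alb, 2.3 for Apoa1 and 2.15 for Rbp4, and all 3 were called.

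Complement and clotting genes behaved alike. Of 40 genes 33 were tested, with 25 called higher, 0 lower and a median of 4.32. Serpinc1, which encodes antithrombin, was at 281, 104 and 735 CPM in aggregates and 2.3, 2.55, 0.964, 0.399 and 1.45 CPM in monolayer. Although the aggregates differed among themselves, each was above all 5 monolayers, and the log2 fold change was 7.95 (SE 0.697, FDR 0.00015). Plg, the precursor of plasmin, and Cpb2, a carboxypeptidase that slows fibrinolysis, rose by 8.02 (SE 0.765, FDR 0.000247) and 7.15 (SE 0.72, FDR 0.000349), and Proz, a cofactor of clotting control, by 5.51 (SE 0.597, FDR 0.00051). Complement C3 and the fibrinogen chain Fgb were already abundant in monolayer, at 617 ± 378 and 523 ± 261 CPM (SD, n = 5), and were not called (log2 fold change 1.27 and 1.80). Fgb had 2271, 3636 and 3698 counts in the aggregates, some of them close to the UMI cap, and was called after the collision correction (2.62). Some of the genes left untested were expressed unevenly between aggregates. F9, clotting factor IX, had 2, 98 and 261 counts in the aggregates and 0 in each monolayer library.

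**Figure D2:**
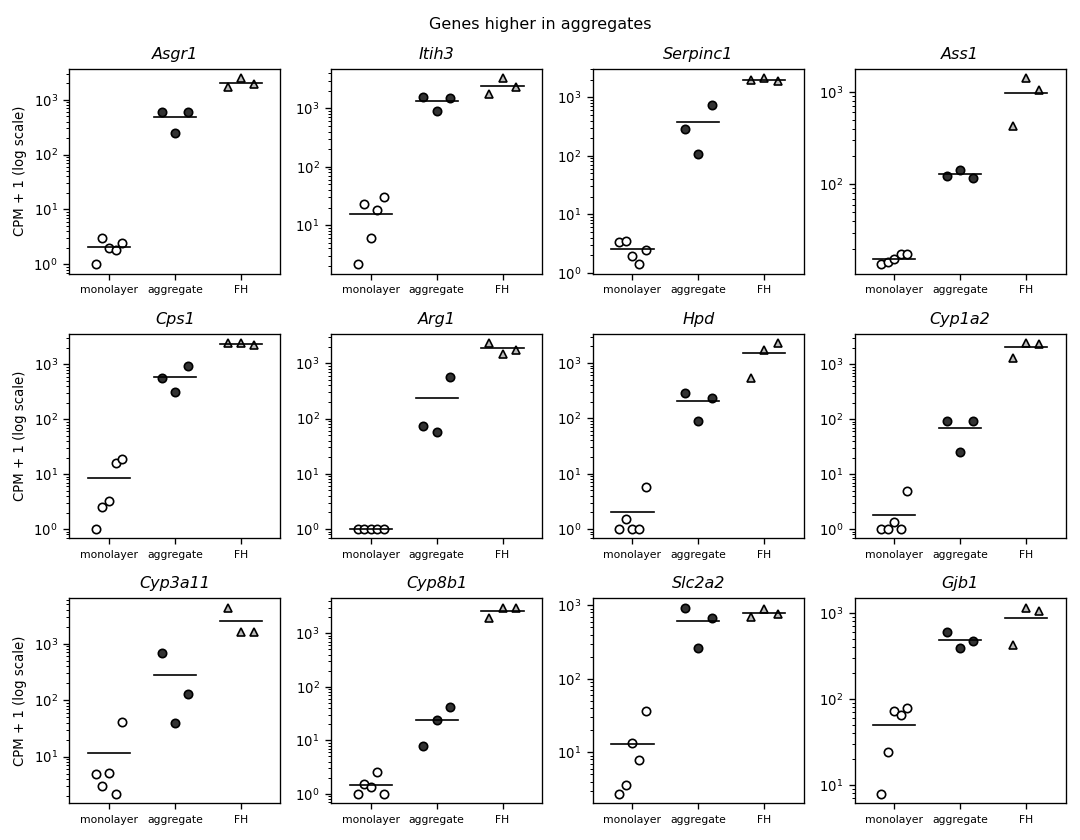
Level of 12 restored genes in each library (vertical axis, log10 scale of TMM-scaled CPM plus 1; open circles, monolayer; filled circles, aggregates; triangles, FH; horizontal bars, group means). In 11 of the 12 panels every aggregate lies above every monolayer library, and Cyp3a11 is the exception, with monolayer replicate 5 at 40.5 CPM above 1 aggregate. The genes were picked from those called higher, and over all tested genes 14.4% had every aggregate above every monolayer library.

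Of 12 genes of the urea cycle and ammonia handling, 11 were tested, 6 were called higher and 0 lower (median 2.68). Ass1, the enzyme that joins citrulline and aspartate, was the most even, with 123, 141 and 117 CPM in aggregates and 12.6, 13.3, 14.5, 16.8 and 16.4 CPM in monolayer (log2 fold change 3.10, SE 0.257, FDR 0.000125). Cps1, which fixes ammonia in the first step, was at 566, 307 and 920.2 CPM against 0, 1.53, 2.25, 15.2 and 17.8 CPM (log2 fold change 6.32, SE 0.909, FDR 0.00204), and Otc, the enzyme of the next step, rose by 6.19 (SE 0.755, FDR 0.000825). Arg1, the arginase that releases urea, had 0 counts in all 5 monolayers and 86, 127 and 1078 counts in the aggregates, at least 917-fold higher when 3 counts over the monolayer group are taken as the floor. Asl, the remaining cycle enzyme, missed the fold threshold (log2 fold change 1.98, SE 0.389, FDR 0.00956). It was called in the fit with the culture as replicate block (log2 fold change 2.32) and after the UMI collision correction (2.11). Oat, which moves an amino group from ornithine, was not called (-0.40).

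Of 16 genes of phenylalanine, tyrosine and tryptophan breakdown, 11 were tested, 9 were called higher and 0 lower (median 4.42). Genes near 0 in monolayer, such as Kmo and Haao, could be tested only because the aggregates were high. Tat, with 4, 9 and 30 counts in aggregates and 0 in monolayer, was not tested. Hgd, which opens the ring of homogentisate, had 158, 164 and 269 counts in aggregates and 0, 1, 1, 0 and 1 counts in monolayer, a ratio of scaled levels of 419.7 (95% exact interval 143 to 2041). Hpd, the step before it, was at 284, 88.3 and 234 CPM and 0, 0.51, 0, 0 and 4.82 CPM (log2 fold change 7.57, SE 0.939, FDR 0.000907). Kmo of the kynurenine branch had 17, 30 and 62 counts in the aggregates and 1 over the monolayers, a ratio of 232 (95% exact interval 40.8 to 9255). Haao of the same branch had 22, 15 and 107 counts in the aggregates and 0 in monolayer, at least 102-fold higher. Fah, which completes tyrosine breakdown and is the enzyme missing in tyrosinaemia type I, was at 242, 279.6 and 246 CPM against 14.9, 45.9, 67.5, 73 and 116 CPM; its log2 fold change of 2.01 (FDR 0.0216) lay just over the threshold and fell to 1.77 without monolayer replicate 1, to 1.91 without monolayer replicate 2 and to 1.96 without aggregate replicate 2. Qdpr, which regenerates the cofactor of phenylalanine hydroxylase, was not called at 1.25, nor was Pcbd1 of the same cofactor cycle (0.78).

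Strict switches were rare. Only 12 genes had 0 counts in every monolayer library and at least 10 in each aggregate, and no gene met the reverse rule, 0 counts in all aggregates with at least 10 in every monolayer. After Arg1 the highest were Amy2a3, a pancreatic-type amylase gene with 271, 46 and 717 counts in aggregates (at least 734-fold higher) and only 2.84 CPM in FH, the acute-phase gene Saa2 (at least 464-fold), Cyp4a14, a fatty acid hydroxylase (at least 371-fold), the carboxylesterase Ces1c (at least 336-fold) and the aldehyde dehydrogenase Aldh8a1 (at least 232-fold). Amylase, carboxylesterase and serum amyloid genes have near-identical copies, so counts may be split or shared among them.

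Drug metabolism was led by phase I genes. Among 54 cytochrome P450 and partner genes, 35 were tested, 24 were called higher and 0 lower, with the highest list median of the liver function lists (4.99). Cyp1a2, which oxidizes caffeine and aromatic amines, was at 90.9, 24.1 and 91.9 CPM in aggregates and 0, 0, 0.321, 0 and 3.86 CPM in monolayer, against 2024 ± 622 CPM (SD, n = 3) in FH. The groups did not overlap, and the log2 fold change was 6.31 (SE 0.951, FDR 0.00268). Cyp3a11, a major enzyme of xenobiotic oxidation, was at 677, 38.4 and 129 CPM against 4.02, 2.04, 4.18, 1.2 and 40.5 CPM. Its groups overlapped, and its log2 fold change of 4.76 (SE 1.13, FDR 0.021) fell to 3.01, not called, without aggregate replicate 1. Cyp2f2, a periportal enzyme, had 32, 37 and 138 counts in aggregates and 2 over all monolayers, a ratio of 220.5 (95% exact interval 60.3 to 1833), yet 4244 CPM in FH. Cyp4a10 and Cyp4a31, which hydroxylate fatty acids and are classical Ppara targets, rose by 7.05 and 7.26. Cyp2a12 had 64, 129 and 472 counts in aggregates and 1 over the monolayers, a ratio of 1417 (95% exact interval 253 to 56039). Cyp4v3 was not called (1.49), but was without monolayer replicate 4 (2.13). Cyb5a, an electron donor of these enzymes, was at 1244 ± 203 CPM (SD, n = 3) in aggregates and 996 ± 187 CPM (SD, n = 5) in monolayer and did not pass the test. Of 50 conjugation enzyme genes 34 were tested, 20 were called higher and 0 lower (median 2.26), and 13 were higher without aggregate replicate 1. Gstm4, a glutathione transferase, was even in both groups, with 145, 111 and 69.9 and 9.2, 9.18, 8.68, 9.98 and 8.68 CPM (log2 fold change 3.56, SE 0.309, FDR 0.000148), and Inmt, an indole methyltransferase, rose by 9.0 (SE 0.92, FDR 0.000362). Of the glucuronosyltransferases, Ugt2b37 rose by 4.32 (SE 0.635, FDR 0.00236), Ugt2b38 had 13, 13 and 28 counts in aggregates and 2 over the monolayers, a ratio of 57.5 (95% exact interval 15.2 to 487), and Ugt2b34 was not called (0.77). Gstm1, the most abundant member, was not called (1.26). Its counts of 3831, 4032 and 3909 in the aggregates were close to the UMI cap, and it was called after the collision correction (2.37).

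Bile acid genes rose in part. Of conjugation and transport genes, Slc27a5, which activates bile acids with coenzyme A, and Baat, which then joins them to an amino acid, rose by 8.26 and 7.00, and the canalicular export pump Abcb11 by 7.07 (SE 0.779, FDR 0.000526). The uptake carrier Slc10a1 had 73, 27 and 165 counts in aggregates and 0, 1, 0, 0 and 1 in monolayer, a ratio of 282 (95% exact interval 77.4 to 2343). For Abcb11 the aggregates were at 125, 68.7 and 152 CPM and the monolayers at 0, 0, 0, 1.6 and 2.41 CPM. In all, 19 of 26 genes were tested, 11 were called higher and 0 lower (median 2.26). Of the synthesis enzymes named here, Cyp8b1, Cyp7a1 and Cyp7b1 were at low levels in aggregates. Cyp8b1, the 12-alpha hydroxylase, was at 6.73, 22.7 and 40.2 CPM against 0, 0.51, 0.321, 1.6 and 0 CPM (log2 fold change 5.35, SE 0.812, FDR 0.00271) with 2631 ± 621 CPM in FH (SD, n = 3). Cyp7a1, the rate-limiting enzyme, had 2, 7 and 13 counts in aggregates and 0 in every monolayer library, too few for the test but at least 15.6-fold higher, and FH were at 172 CPM. Cyp7b1 of the alternative pathway had 1 count over the 3 aggregates and 0 in monolayer. Acox2, a peroxisomal oxidase of the side chain, was not at a low level, with 1099, 726 and 625 CPM in aggregates and 622 CPM in FH. It was not called (1.79, SE 0.539, FDR 0.0494), but was with the culture as replicate block (2.22). The export pump Abcc4 was not called (-0.37).

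In gluconeogenesis, glycogen and hepatic glucose handling, 15 of 21 genes were tested, 14 were called higher and 0 lower (median 3.74). The other members had too few counts, and genes near 0 in monolayer, such as G6pc, were tested only because the aggregates were high. Slc2a2, the hepatocyte glucose transporter, was at 928, 261 and 669 CPM in aggregates and 1.72, 2.55, 12.5, 6.79 and 35.7 CPM in monolayer (log2 fold change 5.69, SE 0.816, FDR 0.002), and FH were at 781 CPM. Gcgr, the glucagon receptor, was at 85, 73.6 and 144 CPM against 0, 0, 0.643, 1.6 and 0.482 CPM (log2 fold change 7.26, SE 0.618, FDR 0.00014). Ppp1r3c, a glycogen-targeting subunit of phosphatase 1, rose by 5.08 (SE 0.7, FDR 0.00164), and G6pc, which releases free glucose, had 26, 20 and 80 counts in aggregates and 3 over the monolayers, a ratio of 89.5 (95% exact interval 29.9 to 439.7). The exception among the tested genes was the coactivator Ppargc1a, at 33.2 ± 9.16 CPM (SD, n = 3) and 34.7 ± 6.66 CPM (SD, n = 5). Pck1, the first committed enzyme of gluconeogenesis, was not tested, with 1 count over the 3 aggregates and 1 over the monolayers, but 1956 CPM in FH. Of glycolytic isozymes outside the adult hepatocyte programme, 0 of 16 tested genes were called higher and 1 lower (median -0.33). The lower count was near the 5.11% over all tested genes. Pkm, the non-hepatic pyruvate kinase, stayed at 1043, 1111 and 1048 CPM in aggregates and 982, 1465, 1188, 1339 and 1199 CPM in monolayer with 20.3 CPM in FH, and Pgam1 was not called (0.27). The gene that fell was Slc16a3, a lactate exporter, with 1, 2 and 0 counts in aggregates and 17, 9, 185, 27 and 22 in monolayer, a ratio of monolayer to aggregates of 40.7 (95% exact interval 13.8 to 199) at an FDR of 0.0206.

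For fatty acid oxidation and ketogenesis, 5 of 32 tested genes were called higher and 0 lower, with a median of 1.12. They included Cyp4a14, Bdh1, Fabp1 and Acaa1b. Fabp1, the liver fatty acid binding protein, had 302, 301 and 291 CPM in the 3 aggregates and 3.45, 42.8, 35.7, 21.2 and 19.8 CPM in monolayer (log2 fold change 3.59, SE 0.542, FDR 0.00268), while FH were at 2070.3 CPM. Peroxisomal Crot and the thioesterase Acot1 were not called (0.69 and 0.25). Of 36 tested genes of cholesterol and fatty acid synthesis 2 were called, both higher (median 0.51), near the 4.39% called higher over all tested genes. Without monolayer replicate 1, aggregate replicate 1 or aggregate replicate 3 the count was 1. The 2 called genes were Dgat2, the last enzyme of triglyceride synthesis (2.2; 1.93, 2.17 and 2.13 and not called without those libraries), and Gpam, its first enzyme (2.35, SE 0.461, FDR 0.00956). The desaturase genes Scd1 (1.57, SE 0.419, FDR 0.033) and Scd2 (0.02) were not called. After the UMI collision correction Scd1 was called (2.06).

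Hepatocytes near the portal vein specialize in urea synthesis and gluconeogenesis, and those near the central vein in glutamine synthesis and drug oxidation. Of 21 periportal genes 17 were tested, 12 were called higher and 0 lower (median 3.53). Hsd17b6, a steroid dehydrogenase, had 227, 164 and 237 counts in aggregates and 2 over the monolayers, a ratio of 669 (95% exact interval 184 to 5536), and Ctsc, a lysosomal protease, was not called (-0.81). Of 22 pericentral genes only 9 had enough counts, 1 was called higher (Cyp1a2) and 1 lower (median 0.37). The lower gene was Rnf43, a feedback target of Wnt signalling, at 0, 3.12 and 4.18 against 14.9, 12.2, 16.1, 12.8 and 16.9 CPM (log2 fold change -2.45, SE 0.629, FDR 0.0295), and its call was lost without aggregate replicate 1 (-1.99). Glul, glutamine synthetase, was at 194 ± 22.9 CPM (SD, n = 3) in aggregates and 134 ± 63.2 CPM (SD, n = 5) in monolayer and was not called (0.53), nor was the retinal dehydrogenase gene Aldh1a1 (1.14). Without monolayer replicate 4 or 5 the list had 2 lower calls, as it had with the culture as replicate block. Cyp2e1 had 0 counts in the aggregates and 1 in the monolayers, with 1596 CPM in FH. Both lists share some genes with those of nitrogen, glucose and drug metabolism.

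Receptors on the hepatocyte surface moved both ways. Of 20 tested genes of receptors and iron control, 7 were called higher and 2 lower (median 0.95), with 1 lower without aggregate replicate 1 or 3. Over all tested genes 4.39% were called higher and 5.11% lower. Ceacam1, an adhesion receptor involved in insulin clearance, rose by 3.88 (SE 0.484, FDR 0.000919) and Il6ra, which receives the acute-phase signal, by 2.87 (SE 0.388, FDR 0.00144). Socs2, a feedback inhibitor of growth hormone signalling, fell by 3.46 on the log2 scale (FDR 0.00709). Igf1r, a growth factor receptor that adult hepatocytes hardly express, was at 2.53, 7.13 and 1.04 against 93.1, 24, 10.3, 9.58 and 16.9 CPM (log2 fold change -3.02, SE 0.945, FDR 0.0554). Its call was lost without aggregate replicate 1 (-2.88) and without aggregate replicate 3 (-2.59). The growth hormone receptor gene Ghr (1.51, SE 0.365, FDR 0.0231) and Met, the receptor of hepatocyte growth factor (0.24), were not called.

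Of 21 tested liver transcription factors, 7 were called higher and 0 lower, and the median was 0.68. Nr1h3, the oxysterol sensor LXR alpha, was at 45.5, 37 and 53.2 CPM in aggregates and 3.45, 4.08, 3.53, 7.18 and 5.31 CPM in monolayer (log2 fold change 3.24, SE 0.363, FDR 0.000526). Rxra, the partner of many nuclear receptors, was at 244, 180.2 and 248 CPM against 28.7, 31.6, 26.4, 61.1 and 46.3 CPM (log2 fold change 2.53, SE 0.33, FDR 0.00121). Ppara, the sensor of fatty acids, rose by 3.75 (SE 0.545, FDR 0.00222), Creb3l3, a fasting-induced factor of the endoplasmic reticulum membrane, by 3.36 (SE 0.645, FDR 0.00858), and the xenobiotic sensor Nr1i2 by 3.16 (SE 0.724, FDR 0.0187). Nr5a2 (2.25) and Foxa3 (2.17) lay near the fold threshold. The call of Nr5a2 was lost without monolayer replicates 1, 2 or 5 or any 1 of the aggregates (1.78 to 2.51), and that of Foxa3 without monolayer replicate 1 (1.91), monolayer replicate 3 (1.95) or aggregate replicate 1 (1.97). Hnf4a, a central regulator of the hepatocyte programme, was at 421, 515 and 469.8 CPM and 134, 224, 385, 226 and 273 CPM and was not called (log2 fold change 0.91, SE 0.316, FDR 0.0752). Its aggregates were all above its monolayers, as for 14.4% of all tested genes. Foxa2 (-0.78, SE 0.327, FDR 0.126) and Onecut2 (-1.47, SE 0.356, FDR 0.0231) were not called.

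Promoter sequence was described for genes with an entry in the RefSeq promoter table of GRCm38.p6, which held 8162 of the 11265 tested genes, 377 of the 495 higher and 410 of the 576 lower. Motifs were searched on both strands in the 250 bases before each start site. The HNF4 motif CAAAGTCCA was in 2.92% of the higher, 0.976% of the lower and 0.564% of all tested genes. Another liver motif, TTGCGCAA of C/EBP, was in 0.265%, 0.488% and 0.294%. GGAATG of TEAD was in 14.6%, 15.9% and 12.6%, and TGANTCA of AP-1 in 7.96%, 5.37% and 5.39%. These shares are a description, and a match is not a site of binding. Windows of 30 bases around the HNF4 motif are shown for 3 genes that were called higher, read 5′ to 3′ on the strand of the gene, with the motif in capitals:
Cyp8b1, chr9:121916353-121916382, minus strand: agcctctgagCAAAGTCCAagggcaggaac
Cyp2c70, chr19:40187331-40187360, minus strand: aggtcaaactCAAAGTCCAaactctgtgta
Cyp3a11, chr5:145879944-145879973, minus strand: aagagagtacCAAAGTCCAgtgatgcaaag
All 3 windows end before the annotated start, so they lie upstream of the first exon. Cyp2c70, a P450 of bile acid metabolism, rose by 5.07 (SE 0.867, FDR 0.00491).

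The mitosis list had the most lower calls of the 31 lists. Of 72 genes, 67 were tested, 60 were called lower (5.11% over all tested genes) and 0 higher, with a median log2 fold change of -4.15, and in 58 of the 67 every aggregate lay below every monolayer library (12.7% over all tested genes). Kifc1, a motor of the spindle, had the smallest p of all lower genes, with 0, 0.446 and 1.04 CPM in aggregates and 26.4, 35.2, 61.4, 22.4 and 45.3 CPM in monolayer. The aggregates held 0, 1 and 2 counts, and the ratio of monolayer to aggregates was 71.3 (95% exact interval 24.3 to 347) at an FDR of 0.000629. Mki67, the gene of the Ki67 proliferation marker, was at 0.842, 4.01 and 13.6 CPM against 83.9, 176, 630.2, 222 and 304 CPM (log2 fold change -5.45, SE 0.884, FDR 0.00382), and FH were at 11.1 ± 7.87 CPM (SD, n = 3). The cytokinesis genes Ect2, Kif23 and Kif20a fell by similar sizes (log2 fold change -4.55, -4.73 and -4.56). Pttg1, the securin gene, went against the list with 99.3, 202 and 304 CPM in aggregates and 37.9, 79.5, 72.9, 170.4 and 74.3 CPM in monolayer (1.21, SE 0.468, FDR 0.101) and was not called, and the kinetochore gene Spc25 was not called either (-1.05). Monolayer replicate 3, which has no aggregate of its own, had the highest levels of many of these genes, with 519.6 CPM of Cdk1 against 143 to 179 in the other 4 monolayers. Without it 58 mitosis genes were called lower, and in the 3 shared cultures alone 43.

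Of 43 tested DNA replication genes 13 were called lower and 0 higher (median -1.63). The count was 6 without aggregate replicate 1, 8 without aggregate replicate 2, 10 without monolayer replicate 3 and 5 in the 3 shared cultures alone. Cdc6, which loads the replicative helicase, had 0, 0 and 2 counts in aggregates and 5, 11, 47, 18 and 15 in monolayer, a ratio of monolayer to aggregates of 22.5 (95% exact interval 6.07 to 189), and the helicase subunit Mcm4 fell as well (log2 fold change -3.93, SE 0.92, FDR 0.0203). The abundant clamp gene Pcna was at 76.6, 56.6 and 77.8 CPM against 148, 177, 352, 130.1 and 142 CPM and was not called (-1.44, SE 0.385, FDR 0.0337), nor was Mcm7 (-1.12). The ribonucleotide reductase gene Rrm1 was called (-2.55) but not with the culture as replicate block (-1.97).

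Promoters of these lists differed in motif content. The cell cycle homology region, TTTGAA or TTCGAA, was in 42.9% of the 56 tested mitosis genes with an entry, in 15.6% of the 32 DNA replication genes and in 14.5% of all tested genes. Among all called genes it was in 20.7% of the higher and 21.0% of the lower genes. It was accompanied by CCAAT, the NF-Y motif, in 35.7% of the mitosis genes, 12.5% of the replication genes, 5.72% of all tested genes, 6.63% of the higher and 10.7% of the lower genes. CCAAT alone or with others was in 67.9%, 62.5%, 41.0%, 42.2% and 47.6% of these groups. The E2F motif TTCCCGC was in 0% of the mitosis genes, 28.1% of the replication genes, 8.52% of all tested genes, 4.24% of the higher and 9.27% of the lower genes. Windows of 5 mitosis genes called lower are shown to make the shared hexamer visible, with TTTGAA and CCAAT or their reverse complements in capitals, again 5′ to 3′ on the strand of the gene and upstream of the start:
Cdk1, chr10:69352966-69352995, minus strand: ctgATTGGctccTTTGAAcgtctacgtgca
Cdc20, chr4:118437344-118437373, minus strand: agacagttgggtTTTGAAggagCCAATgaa
Prc1, chr7:80294434-80294463, plus strand: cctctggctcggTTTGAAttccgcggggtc
Ube2c, chr2:164769888-164769917, plus strand: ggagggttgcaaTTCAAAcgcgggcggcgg
Mki67, chr7:135716460-135716489, minus strand: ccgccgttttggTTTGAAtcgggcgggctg
Cdk1 drives entry into mitosis, Cdc20 and Ube2c act in the anaphase-promoting complex, and Prc1 bundles the central spindle; the log2 fold changes of Cdk1, Ube2c and Prc1 were -3.55, -4.04 and -3.98, and Cdc20 had 0, 1 and 2 counts in aggregates, a ratio of monolayer to aggregates of 43.2 (95% exact interval 14.6 to 211).

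**Figure D3:**
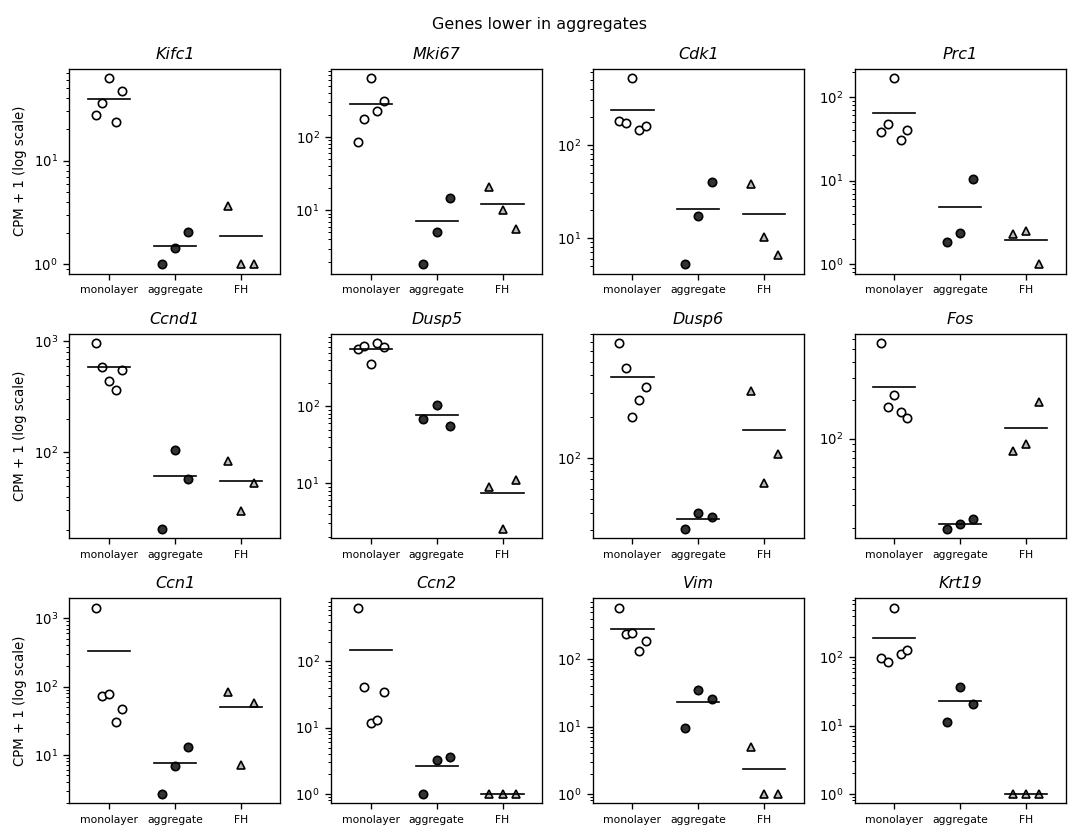
Level of 12 genes that were lower in aggregates in each library (vertical axis, log10 scale of TMM-scaled CPM plus 1; open circles, monolayer; filled circles, aggregates; triangles, FH; horizontal bars, group means). All 3 aggregates lie below all 5 monolayers in each panel, and Ccn1, Ccn2 and Vim are highest in monolayer replicate 1. The genes were picked from those called lower, and over all tested genes 12.7% had every aggregate below every monolayer library.

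Of 24 tested genes of G1 control 4 were called lower (Ccnd1, Ccnd2, Rbl1 and Myc) and 0 higher (median -0.73), with 2 without aggregate replicate 2 and 1 without aggregate replicate 3. Ccnd1, the cyclin that growth factors induce, was at 19.4, 103 and 56.9 CPM in aggregates, 969.7, 589, 437, 362 and 555 CPM in monolayer and 54.5 CPM in FH (log2 fold change -3.27, SE 0.55, FDR 0.00473). Myc was called at -4.36 (FDR 0.0788), but its groups overlapped, and without monolayer replicate 1 it was at -2.13 and not called, nor was it without any 1 of the aggregates (-4.31, -4.07 and -4.90 without replicates 1, 2 and 3). Ccnd2 overlapped too, and its call was lost without aggregate replicate 2 or 3 (log2 fold change -2.76 and -2.25). Rbl1, a relative of the retinoblastoma protein, was called (-2.69, SE 0.668, FDR 0.0256), but not without aggregate replicate 3 (-2.60). Cdkn1a, the p21 inhibitor, stayed high at 569 ± 78.8 CPM (SD, n = 3) in aggregates and 445 ± 81 CPM (SD, n = 5) in monolayer, against 7.04 CPM in FH. Cdk4 was not called (-0.72). Of 26 tested p53 target genes 8 were called lower and 0 higher (median -0.83), but 3 without aggregate replicate 1, 3 without aggregate replicate 3 and 4 without aggregate replicate 2 or monolayer replicate 1. Plk2, a stress-induced kinase, fell by 3.58 on the log2 scale (FDR 0.00381) and the death receptor gene Tnfrsf10b by 2.58 (FDR 0.0145), while Mdm2 was not called (-0.66). Ccng1, a cyclin G gene, was called at -2.12 (FDR 0.0051), but not with the culture as replicate block (-1.96), without monolayer replicate 1 (-1.96) or without aggregate replicate 3 (-1.89). The antiproliferative gene Btg2 was called at -2.10 (FDR 0.0233), but not without monolayer replicate 1 (-1.78), aggregate replicate 1 (-1.82) or aggregate replicate 2 (-1.91).

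Feedback genes of ERK signalling, which growth factors such as EGF switch on, were lower in part. Of 33 tested genes of ERK feedback, AP-1 and EGF ligands 15 were called lower and 0 higher (median -1.89), and 11 to 17 were called when 1 library was left out. Dusp5, a nuclear ERK phosphatase, was at 67.3, 104 and 55.3 CPM in aggregates and 555, 622, 359.9, 673 and 593 CPM in monolayer (log2 fold change -2.89, SE 0.339, FDR 0.000653). Dusp6, the cytoplasmic ERK phosphatase, was at 29.5, 38.8 and 36 CPM against 689.8, 452, 199, 264 and 326 CPM (log2 fold change -3.47, SE 0.457, FDR 0.00125), below the 159 ± 129 CPM (SD, n = 3) of FH. Spry2, an inhibitor of receptor signalling, had 1, 1 and 1 counts in aggregates and 27, 34, 29, 15 and 18 in monolayer, a ratio of monolayer to aggregates of 19.2 (95% exact interval 6.43 to 94.6). Fos, a component of AP-1, was at 18.5, 20.5 and 22.4 CPM and 562, 174, 219, 161 and 144 CPM (log2 fold change -3.61, SE 0.537, FDR 0.00253). Jun and the immediate early gene Ier2 were lower in every aggregate than in every monolayer, as were 12.7% of all tested genes, but changed less than the fold threshold (-1.26 and -1.13). EGF was added to the monolayer medium, and its part in these values was not tested. Outside the lists, the lower genes with the smallest p included the sulfate carrier Slc26a2 (-2.98, SE 0.43, FDR 0.00209), Dcbld2 (-2.23, SE 0.333, FDR 0.00258), Sh3rf1 (-2.07, SE 0.307, FDR 0.00253; -1.91 and -2.0 and not called without monolayer replicate 1 or aggregate replicate 3), Efnb2, an ephrin ligand (-3.20, SE 0.42, FDR 0.00125), Hes1, a Notch target (-4.34, SE 0.643, FDR 0.00247), and Dhh, a hedgehog ligand, at 1, 1 and 1 counts in aggregates and 51, 34, 68, 70 and 136 in monolayer (ratio of monolayer to aggregates 56.2, 95% exact interval 19.1 to 274).

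Target genes of Yap and Tead, which respond to cell spreading and tension, fell in part as well. The list also holds the regulator genes Yap1, Wwtr1, Tead1, Tead2 and Tead4, so not all of its genes are targets. Of 25 tested genes 10 were called lower and 0 higher, the median was -1.65, and all 25 fold changes were below 0. The count was unstable: 2 without aggregate replicate 3, 3 without aggregate replicate 1, 4 without aggregate replicate 2 and 6 without monolayer replicate 1. Ccn1, a matricellular protein, was at 1.68, 5.8 and 12 CPM in aggregates and 1425, 72.4, 77.4, 28.7 and 46.3 CPM in monolayer, and Ccn2, its relative, at 0, 2.23 and 2.61 CPM and 648, 39.8, 10.6, 12 and 33.3 CPM. Both were below every monolayer in each aggregate, with log2 fold changes of -5.59 (SE 1.59, FDR 0.0411) and -6.32 (SE 1.8, FDR 0.0414) that rest in size on monolayer replicate 1. Without that library they were -3.04 and -3.69 and still called, whereas the calls were lost without any 1 of the aggregates (-5.25 and -5.95 without replicate 1, -5.50 and -6.57 without replicate 2, -6.35 and -6.73 without replicate 3). With DESeq2 neither gene was called (-5.68 and -6.52). Amotl2, an inhibitor that Yap induces, was the steadiest, at 61.5, 79.8 and 108 CPM and 787, 450.2, 239, 313 and 438 CPM (log2 fold change -2.42, SE 0.425, FDR 0.00548). Axl, a receptor kinase, was not called (-1.42, SE 0.314, FDR 0.0163). The transcription factor gene Foxf2 fell by 3.49 on the log2 scale (FDR 0.0202). Myof, a membrane repair protein, was called at -2.16 (FDR 0.0145), but not without aggregate replicate 3 (-1.82). Amotl1 was called at -2.13 (FDR 0.0396), but not without monolayer replicate 1 (-1.54), aggregate replicate 1 (-2.23) or aggregate replicate 3 (-1.84). Ajuba was not called (-1.15).

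Mesenchymal, matrix and cytoskeletal genes fell in part. Of 17 tested mesenchymal genes and EMT factors 6 were called lower and 0 higher (median -1.47), and Vim, Lamb1 and S100a7a are in this list because the study named them on these samples. Vim, the vimentin gene, was at 8.42, 34.3 and 24.5 CPM in aggregates, 581, 237, 244, 129.7 and 187 CPM in monolayer and 1.32 CPM in FH (log2 fold change -3.59, SE 0.614, FDR 0.00495). Lamb1, a laminin chain, and Loxl2, which crosslinks collagen, fell by 4.52 and 3.76 on the log2 scale (FDR 0.00411 and 0.00577). S100a7a, a calcium-binding protein of stressed epithelium, had 0, 0 and 1 counts in aggregates and 35, 21, 4, 37 and 82 in monolayer, a ratio of monolayer to aggregates of 84 (95% exact interval 14.9 to 3337). Cd44 (-1.47, SE 0.437, FDR 0.0473) and the fibronectin gene Fn1 (0.25) were not called. In the matrix and integrin list 4 of 28 tested genes were called lower and 1 higher (median -1.20), and in the actin, S100 and annexin list 7 of 40 were lower and 0 higher (median -0.86). Over all tested genes 5.11% were called lower and 4.39% higher, so the 1 higher matrix gene was near the share over all genes. The lower counts of these 2 lists were 2 and 2 without aggregate replicate 1, and 2 and 4 without aggregate replicate 3. In addition, 2 matrix genes were lower without monolayer replicate 4 and 3 actin genes without monolayer replicate 1. Timp2, an inhibitor of matrix proteases, fell by 2.79 (FDR 0.00874), and Tmsb4x, which sequesters actin monomers, by 3.97 (FDR 0.0157) on the log2 scale. The integrin Itgb6 had 0, 3 and 0 counts in aggregates and 49, 10, 82, 7 and 42 in monolayer, a ratio of monolayer to aggregates of 29.7 (95% exact interval 10 to 145). Mmp15, a membrane protease of the adult liver, went the other way, at 35.4, 33.4 and 24 CPM against 1.15, 2.55, 4.82, 3.59 and 3.86 CPM (log2 fold change 3.22, SE 0.432, FDR 0.00136). The collagen receptor gene Itga2 had 0, 1 and 0 counts in aggregates and 8, 20, 2, 17 and 10 in monolayer, a ratio of monolayer to aggregates of 26.8 (95% exact interval 4.61 to 1075), and its call was lost without aggregate replicate 1 or 3. Lmnb1, a nuclear lamin, fell by 2.50 on the log2 scale (FDR 0.00394). Tpm4, a tropomyosin, was called at -2.01 (FDR 0.00606) but not without monolayer replicates 1 or 3 or aggregate replicates 1 or 3 (-1.95 to -1.84). Msn, which links actin to the membrane, was called at -2.20 (FDR 0.0228) but not without monolayer replicate 1 (-1.82), aggregate replicate 1 (-2.05) or aggregate replicate 3 (-2.15). The integrins Itga3 (-1.09) and Itgav (0.01), Actb (0.12) and S100a6 (0.08) were not called.

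Among epithelial junction genes, connexins moved in both directions. Gjb1, connexin 32 of adult hepatocytes, was at 600.2, 395 and 471 CPM in aggregates and 6.9, 22.9, 71.3, 64.3 and 77.2 CPM in monolayer (log2 fold change 3.32, SE 0.589, FDR 0.00577), and Gjb2, connexin 26, rose by 3.89 (SE 0.726, FDR 0.00757). Gja1, connexin 43, was at 0.842, 0 and 0.522 CPM against 23, 6.63, 6.43, 0.798 and 9.16 CPM (ratio of monolayer to aggregates 22.1, 95% exact interval 5.94 to 185, FDR 0.0361), but the groups overlapped, and its call was lost without any 1 of the aggregates (log2 fold change -4.94, -3.67 and -4.62 without replicates 1, 2 and 3). The list of junctions and keratins had 3 of 29 tested genes called higher, 2 lower (1 without aggregate replicate 3) and a median of -0.04. Over all tested genes 4.39% were called higher and 5.11% lower, so the lower count was near the share over all genes. Cdh1, E-cadherin, was at 519, 548 and 501 CPM in aggregates and 1195, 1363, 769, 808 and 737 CPM in monolayer and was not called (-0.90, SE 0.279, FDR 0.0538). Its aggregates were all below its monolayers, as for 12.7% of all tested genes. The tight junction gene Ocln was not called (0.44, SE 0.487, FDR 0.552), and Cldn3 ranged from 2.53 to 74.6 CPM among the aggregates (0.56, SE 1.39, FDR 0.805). Ctnnb1, the beta-catenin gene, and the keratin gene Krt18 were not called (-0.07 and 0.04).

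Few progenitor genes and some intestinal genes were called. Over all tested genes 4.39% were called higher and 5.11% lower. Of 21 tested biliary and hepatic progenitor genes 1 was called higher, near the share over all genes, and 2 lower (median -1.33). Both lower genes, Krt19 and Prom1, were named by the study on these samples, so they are no separate evidence. Without aggregate replicate 2 the counts were 0 and 4. With the culture as replicate block 2 were higher and 5 lower. Without aggregate replicate 3, 1 was lower. Krt19, a biliary keratin, was at 10.1, 35.7 and 19.8 CPM in aggregates and 97.1, 85.2, 533, 109 and 128 CPM in monolayer, and FH were listed at 0 (log2 fold change -3.10, SE 0.745, FDR 0.0226). With DESeq2 it was not called (-3.09). Of 10 cholangiocyte markers 6 were tested, and Krt19 was called lower and none higher (median -1.57). Their summed CPM, here without TMM factors, was 319.9 to 586 in the aggregates, 1101 to 1881 in monolayer and 91.2 to 158 in FH. The TMM factors of FH were the lowest, at 0.543 to 0.606, so scaled FH sums would be higher. Sctr had 0 counts in all 8 libraries. The part of biliary-type cells in these results was not tested. Prom1, a progenitor surface marker, fell by 3.09 on the log2 scale (FDR 0.0344), a call lost without aggregate replicate 1 (-2.97) and without aggregate replicate 3 (-2.82). The fetal growth factor gene Igf2 was higher, at 56.4, 422 and 128 CPM against 4.02, 63.2, 42.4, 40.3 and 13 CPM (log2 fold change 2.63, SE 0.76, FDR 0.0435), but at 1.52 and not called without aggregate replicate 2, and its neighbour H19 stayed abundant in both (1.55, SE 0.67, FDR 0.134, not called, but 2.40 and called after the UMI collision correction). Anxa4 was not called (-0.42). In the list of intestinal genes and BMP response 2 of 20 tested genes were called higher and 5 lower (median -1.29), with 3 lower without monolayer replicate 2 or 3 and 2 without aggregate replicate 3. Cdx2, the intestinal master factor, was at 4.21, 24.1 and 5.74 CPM in aggregates and 2.3, 70.9, 127, 32.3 and 9.16 CPM in monolayer. These ranges overlapped, and the log2 fold change of -2.05 (SE 1.07, FDR 0.205) was not called. The intestinal cadherin Cdh17 was called lower (-2.73, SE 0.92, FDR 0.0696), but not in the 3 shared cultures alone (-1.98), nor without monolayer replicates 2 or 3 or aggregate replicates 1 or 3 (-2.81 to -1.98). Id3 and Smad7, direct targets of BMP and TGF-beta signalling, fell by 4.19 and 2.87 (FDR 0.00734 and 0.0207). In contrast Tff3, a trefoil peptide of goblet cells, was at 1149, 461 and 1074 CPM against 0.575, 1.02, 33.4, 15.6 and 0.482 CPM (log2 fold change 6.37, SE 1.06, FDR 0.00439), far over the 0.813 CPM of FH, and Fabp2, the intestinal fatty acid binding protein that hepatocytes also express, rose by 4.95 (SE 0.626, FDR 0.000988) and was at 185 CPM in FH. Clu (-0.20) and the BMP target Id2 (-1.10) were not called.

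Of 38 tested acute phase, chemokine and interferon genes 9 were called higher and 6 lower (median 0.53). Saa1, a serum amyloid, was at 181, 134 and 686 CPM in aggregates and 0, 0.51, 0, 3.99 and 0.965 CPM in monolayer (log2 fold change 8.13, SE 0.912, FDR 0.000526), and Saa4, its constitutive relative, had 90, 84 and 189 counts in aggregates and 1 over the monolayers, a ratio of 773 (95% exact interval 138 to 30628). The neutrophil chemokine Cxcl5 was at 0, 6.69 and 6.26 CPM against 573, 375, 38.9, 741 and 233 CPM (log2 fold change -6.37, SE 1.09, FDR 0.00482). Without aggregate replicate 1 only 2 genes of the list were called lower, and 4 without aggregate replicate 3. Haptoglobin (Hp, 1.80, SE 0.575, FDR 0.0595) and ceruloplasmin (Cp, 0.50) were not called, and after the UMI collision correction Hp was called (2.34). Few stress genes were called. Over all tested genes 4.39% were called higher and 5.11% lower, and the unfolded protein and hypoxia lists had no more calls than about these shares. In the unfolded protein and amino acid response 1 of 29 tested genes was called, Cbs, a transsulfuration enzyme (3.36, SE 0.665, FDR 0.00995), while the chaperone Hspa5 (0.81, SE 0.302, FDR 0.0941) and the serine synthesis gene Psat1 (0.63) were not. Without monolayer replicate 4 this list had 5 higher calls. Of 21 metallothionein, NRF2 and glucocorticoid response genes 2 were higher and 1 lower (Dusp1, -2.66, SE 0.435, FDR 0.00396). The metallothionein Mt2 was called higher (2.08, SE 0.432, FDR 0.0122), though not without monolayer replicate 2 (1.86) or aggregate replicate 1 (1.80), and Mt1 was not (1.52), except after the UMI collision correction (2.33). Lcn2, an iron-binding protein of inflammation, was called at 2.09 (FDR 0.0648), but not with the culture as replicate block (1.84), with upper-quartile scaling (1.96), in the 3 shared cultures (1.72) or without monolayer replicates 1, 2 or 3 or aggregate replicates 2 or 3 (1.65 to 2.02). Sgk1 was not called (0.38). The list had 0 higher calls without monolayer replicate 2 and 1 without monolayer replicates 1 or 3 or any 1 of the aggregates, and 1 with the culture as replicate block. In the hypoxia response 1 of 19 was higher, the mitochondrial kinase Ak4 (2.11, SE 0.399, FDR 0.00809; 1.90 and not called without monolayer replicate 1). In the same list 1 was lower, and 0 without monolayer replicate 2 or aggregate replicates 1 or 3. Ndrg1 (0.21) and the lipid droplet gene Plin2 (0.74) were not called.

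**Figure D4:**
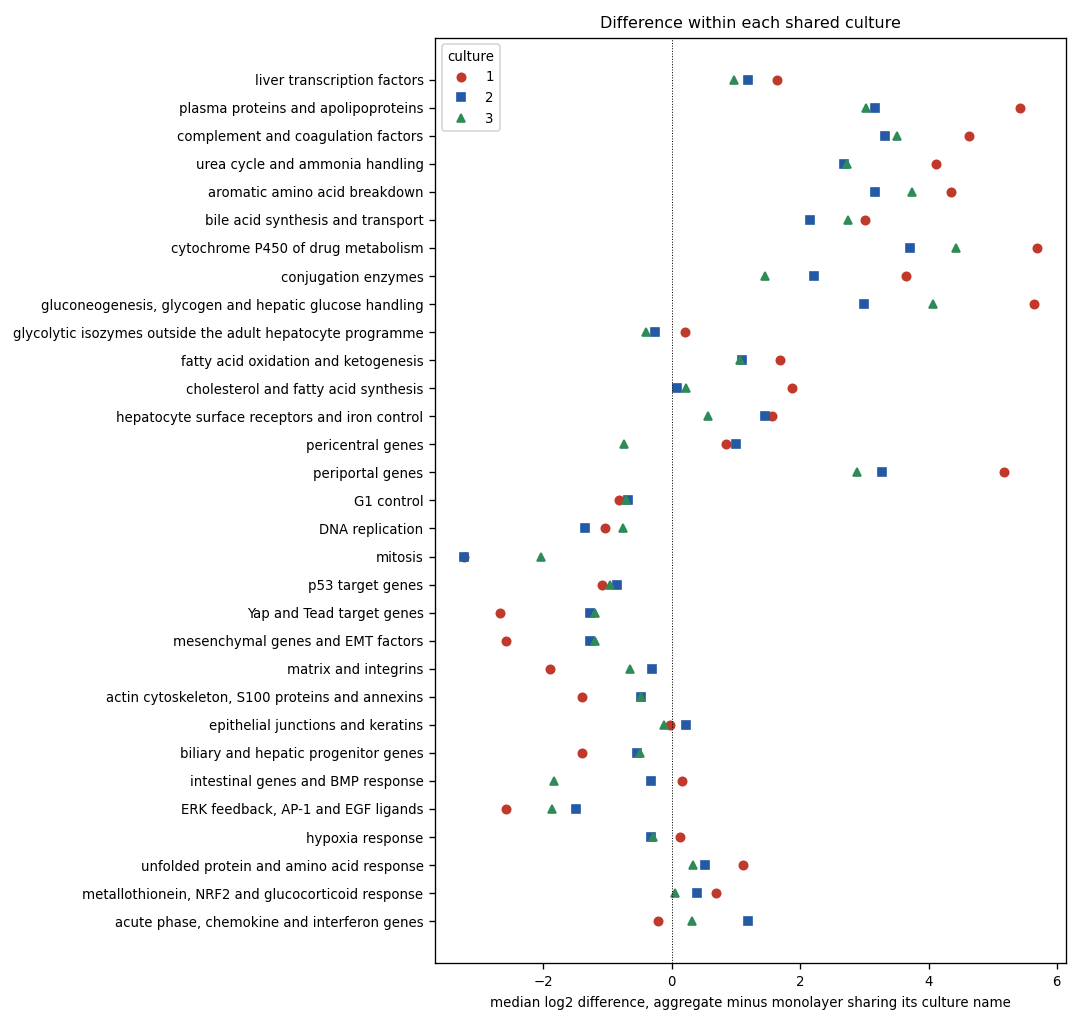
Median difference of each aggregate from the monolayer that shares its culture name (horizontal axis, log2 of TMM-scaled CPM with a prior count of 2) over the tested members of each of 31 gene lists, 1 marker per culture (cultures 1, 2 and 3). Liver function lists other than pericentral genes are above 0, and the mitosis and ERK lists below 0, in all 3 cultures, and culture 1 has the largest absolute median in 24 of the 31 lists, with mitosis tied between cultures 1 and 2, whose markers overlap.

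Freshly isolated hepatocytes give a reference for how far each group went. These levels are a description, since FH were not part of the test. Their TMM factors were 0.543 to 0.606, against 0.872 to 1.09 in the 8 libraries. Over all members of a list, including those with too few counts for the test, the median log2 ratio of level to FH went from -7.40 in monolayer to -3.44 in aggregates for aromatic amino acid breakdown (16 genes), from -6.73 to -2.91 for periportal genes (21), from -6.44 to -1.97 for complement and coagulation (40), and from -5.58 to -2.23 for cytochrome P450 (54). Glucose handling (21 genes) reached -1.26 from -5.93 and plasma proteins (35) -1.22 from -4.78. The most abundant genes were near the UMI cap in FH as well, with 3607, 3733 and 3771 counts of Alb. These levels are not corrected for UMI collisions, so ratios of such genes to FH may be compressed. For mitosis (72 genes) the same ratio went from 3.59 to 0.222, and for DNA replication (49) from 1.71 to 0.214. Some lists were above FH in both groups: the Yap and Tead list (29 genes) went from 2.85 to 0.895, matrix and integrins (42) from 1.40 to 0.435, and biliary and progenitor genes (32) from 3.07 to 2.47.

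**Figure D5:**
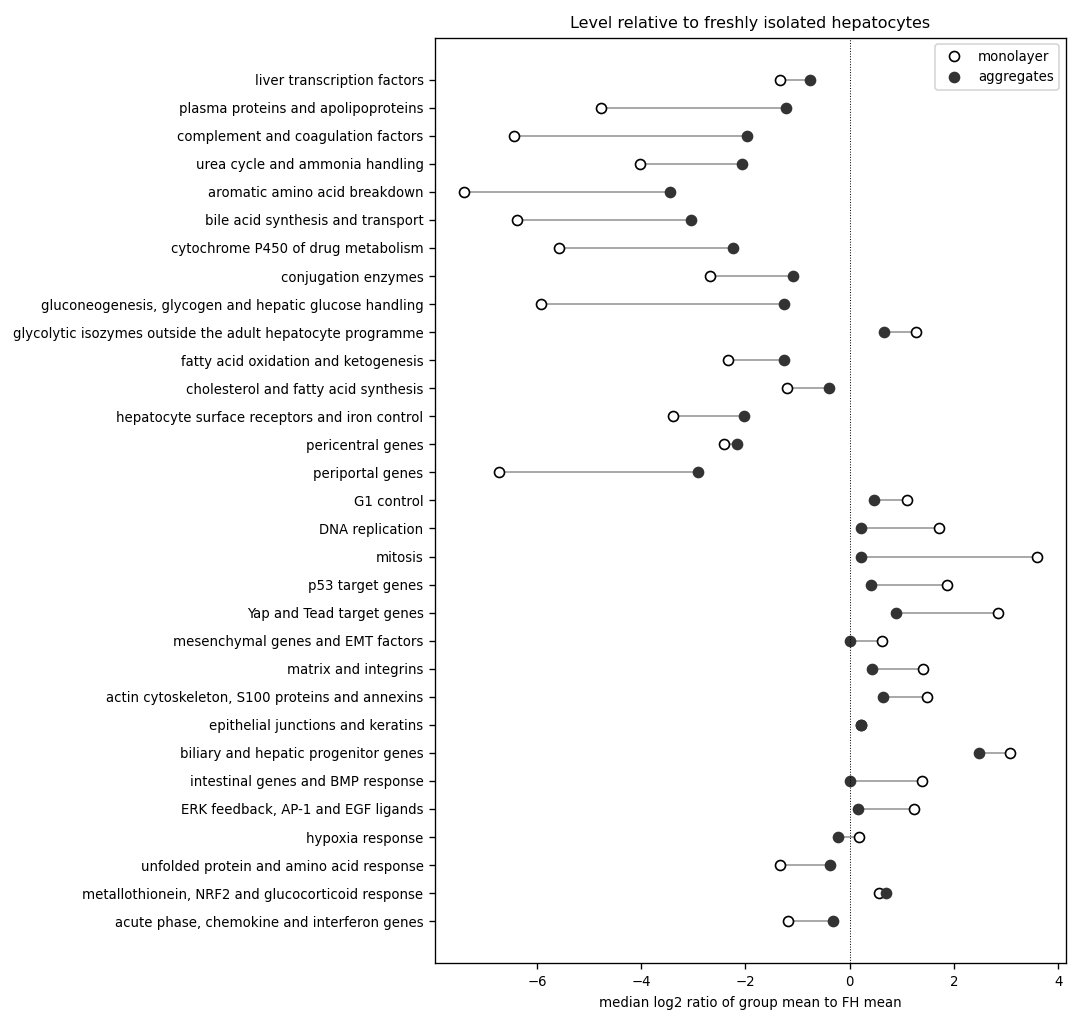
Median log2 ratio of the group mean to the FH mean (horizontal axis, TMM-scaled CPM plus 1) over all members of each gene list, for monolayer (open circles) and aggregates (filled circles), joined by a line; 0 is the FH level. Aggregates lie nearer to 0 than monolayers in 29 of the 31 lists, including epithelial junctions and keratins at 0.220 and 0.222, whose markers overlap, and for biliary and progenitor genes the medians are 3.07 and 2.47.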

How the data were processed

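The authors deposited a table of whole UMI counts per gene for 49 CEL-seq2 libraries; per the labels, bcl2fastq 2.20, Bowtie2 2.3.1, HTSeq 0.6.0 and the build GRCm38 were used. Each RNA was extracted with ISOGEN II or an RNeasy kit, and which library had which is not given. Whether replicates came from separate animals is not given, so p-values measure the spread between these cultures. The 8 libraries were fitted in edgeR 4.0.16 (R 4.3.3) with TMM scaling, filterByExpr and the quasi-likelihood F-test without a block; genes with Benjamini-Hochberg FDR under 0.1 and absolute log2 fold change over 2 were called. Ratios with 1 to 3 counts in a group have exact intervals that cover counting error only, and bounds use 3 counts over the group. Deviations from group means correlated at 0.178, 0.26 and 0.357 for same-named cultures and at -0.285 to 0.121 for the others. The main fit ignores this pairing, since the study's methods name no block. A fit with the culture name as replicate block was an alternative, as were DESeq2 1.42.0, other scalings and filters, a UMI collision correction and leaving out each library. The script was tested on simulated data. Named genes were the 12 called genes of smallest p per direction, genes the study names for this comparison, leading called and abundant uncalled members of 31 lists and the highest switched genes; other list members are named beside their counts. Members and lists were chosen with earlier results of these data known. Genes with near-identical copies share reads and are uncertain. Some genes and motifs are not reported here.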

Additional observations from a re-analysis of the deposited data

Results flagged for a closer look

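The 5 monolayer libraries were searched for a library far from the other 4, by Dixon's criterion at 0.71, in each of 200 named genes. Of these genes, 29 had such a library. For normally distributed values chance flags about 1 in 20 groups, and the rate for CPM was not tested. In monolayer replicate 1 the CPM of these genes stood apart: Qdpr 166 (others 432 to 499), Igf1r 93.1 (others 9.58 to 24), Myc 264 (others 2.41 to 31.5), Fos 562 (others 144 to 219), Jun 1513 (others 736 to 910.1), Plk2 286 (others 74.4 to 94.8), Ccn1 1425 (others 28.7 to 77.4), Ccn2 648 (others 10.6 to 39.8), Vim 581 (others 129.7 to 244), Tmsb4x 1489 (others 88.2 to 326) and Amotl1 195 (others 32.7 to 73.3). In monolayer replicate 2 the CPM of this gene stood apart: Cpb2 11.7 (others 0.482 to 3.21). In monolayer replicate 3 the CPM of these genes stood apart: Slc16a3 59.5 (others 4.59 to 10.8), Cdk1 519.6 (others 143 to 179), Cdc20 58.8 (others 8.05 to 16.4), Ube2c 46.6 (others 5.61 to 12.1), Prc1 166 (others 29.5 to 46.4), Rrm1 211 (others 45.9 to 81), Pcna 352 (others 130.1 to 177), Krt19 533 (others 85.2 to 128), Ocln 380.2 (others 80.1 to 135) and Cdh17 268 (others 21.3 to 82.1). In monolayer replicate 4 the CPM of these genes stood apart: Saa1 3.99 (others 0 to 0.965), Cbs 85.8 (others 6.9 to 19.9) and Plin2 831 (others 204 to 381). In monolayer replicate 5 the CPM of these genes stood apart: Hpd 4.82 (others 0 to 0.51), Cyp3a11 40.5 (others 1.2 to 4.18), Acox2 586 (others 79.4 to 221) and Dhh 65.6 (others 17.3 to 29.3). Most of these values belong to monolayer replicates 1 and 3, and groups of 3 aggregates were not searched. No cause was tested.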

How the results depend on the processing

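The count of 1071 called genes was within 1.5 times of itself under other scalings, the stricter filter, DESeq2 (1494), the UMI correction, FDR under 0.05 (870) and in the shared cultures (1076). With the replicate block by culture 1253 genes were called, 643 higher and 610 lower, and 978 of the 1071 were kept. Without the low-count filter 1608 were called (791 higher), with all 49 libraries in one fit 1804 (780 higher and 1024 lower), and at an absolute log2 fold change over 1, 2434 (1180 higher and 1254 lower). Leaving out 1 library gave 718 to 1215 called genes, 436 to 551 higher and 273 to 664 lower. Upper-quartile scaling shifted the median of all genes by -0.103. Of 136 named called genes, 108 stayed called without any 1 library and 28 did not. With the block Rrm1, Ccng1 and Lcn2 were no longer called and Asl and Acox2 were, and it changed no other call among the 200 genes named here, and DNA replication genes called lower went from 13 to 9. Named genes that were not called changed sign in some fits. Without 1 library Ppargc1a ranged from -0.30 to 0.07, Actb from -0.06 to 0.28, Cldn3 from -1.73 to 1.40, Acot1 from -0.34 to 0.63, Ctnnb1 from -0.20 to 0.09, Fn1 from -0.03 to 0.51, Itgav from -0.19 to 0.20, Krt18 from -0.21 to 0.25, Ndrg1 from -0.03 to 0.59, Oat from -0.94 to 0.03, S100a6 from -0.13 to 0.23, Scd2 from -0.31 to 0.16 and Sgk1 from -0.03 to 0.64. In the 3 shared cultures Scd2 was at -0.06, Fn1 at -0.11, Itgav at -0.13 and S100a6 at -0.03, and with the block there at -0.10, -0.08, -0.14 and -0.05, with Acot1 at -0.02. With the block over 8 libraries Scd2, Fn1, Itgav and S100a6 were at -0.07, -0.04, -0.10 and -0.02. With upper-quartile scaling Scd2, Itgav, S100a6 and Krt18 were at -0.08, -0.10, -0.02 and -0.07, and after the UMI correction at -0.49, -0.02, -0.48 and -0.02. Itgav was at -0.01 with all 49 libraries and at -0.0 without the filter. After the UMI correction Fgb (2.62), Asl (2.11), Gstm1 (2.37), Scd1 (2.06), H19 (2.40), Hp (2.34) and Mt1 (2.33) were called, as were Apoa1 and Rbp4. Depth limits genes below about 10 counts per library. The cause of these changes was not tested.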

Other observations

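Some genes at high levels in FH did not return. Among 2965 genes at 100 CPM or more in FH, 147 had at most 3 counts over all 5 monolayers. Of these, 32 had at least 10 counts in each aggregate, 62 lay in between, and 53 still had at most 3 counts over the 3 aggregates. This division and the genes named from it were chosen after their values were seen. The genes still near 0 included members of the major urinary protein family, which carry pheromones in urine and share near-identical sequences, such as Mup1 at 5080.4 CPM in FH and 0 counts in the aggregates. Clec4g, an endothelial marker at 187 CPM in FH, was also among them, so the 53 genes are not a count of separate hepatocyte genes. Others were the organic anion carrier Slco1a1, the cytochromes Cyp2e1 and Cyp2j5 and the alpha-macroglobulin Mug1, all at 0 counts in the aggregates with 1607, 1596, 998 and 1313 CPM in FH. Sec14l4, a lipid transfer protein, was at the other end, with 222, 162 and 296 counts in the aggregates and 2 over the monolayers, a ratio of 724 (95% exact interval 199.7 to 5993).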
